A study of Mus musculus with 4 samples.

Results

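The genes described here encode the granule proteins, surface receptors and regulators of the neutrophil, a bone marrow cell that was not the target of the sort. They are 33 genes, chosen by symbol as known genes of neutrophil granules and of neutrophil maturation, out of 55573 gene identifiers measured: primary granule proteins (4 genes), regulators and markers of the progenitor (3), secondary granule proteins (8), tertiary granule proteins (4) and genes of the mature neutrophil (14). The choice was made with earlier results of these data known. RNA sequencing was carried out on 2 libraries labelled ADAR1 KO (KO 1 and KO 2) and 2 wild type libraries (WT 1 and WT 2). All 4 came from bone marrow of C57BL/6 mice aged 8 to 12 weeks, sorted as the Fr.C+C' fraction of early B cells. Adar, the targeted gene, encodes an RNA editing enzyme that turns adenosines of paired RNA into inosines. The labels state neither how the allele was made nor in which cells it was deleted. They also do not say that KO 1 and KO 2, or WT 1 and WT 2, are different mice, so each p-value reflects only library-to-library spread, of which some or all may be technical.

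Neutrophils mature in the marrow through successive waves of granule protein synthesis. Promyelocytes fill primary (azurophil) granules with myeloperoxidase and serine proteases, myelocytes and metamyelocytes fill secondary (specific) granules with lactoferrin and antimicrobial proteins, and later cells fill tertiary (gelatinase) granules with matrix metalloproteinases before the chemokine and formyl peptide receptors of the mature cell appear. Transcripts of the early waves decline as the later ones appear. Early granulocyte-monocyte progenitors and monocytes share some of these transcripts, among them Mpo, Elane, Itgam, Chil3 and Fpr1.

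Levels are FPKM as the authors deposited them, a measure of fragments relative to transcript length and library depth. Between 15122942 and 16416628 fragments per library were recovered from the steps in the low values. Adar stood at 15.19 and 16.79 FPKM in KO 1 and KO 2, against 15.04 and 14.62 FPKM in WT 1 and WT 2 (log2 change 0.10 ± 0.14 SE, adjusted p = 0.721, limma), so its level over the whole gene does not check the KO label, and KO names only the libraries labelled so. The B-lineage marker list, checked against the sort label, summed to 2335 and 1436 FPKM in KO 1 and KO 2 and to 2800 and 2850 FPKM in WT 1 and WT 2, with 15 of 15 markers detected. By gene, the median marker was 0.968-fold the WT mean in KO 1 and 0.533-fold in KO 2. No batch is named in the labels, so none could be set against the groups. In whole-sample RNA, fewer cells of a type and less RNA per cell cannot be told apart.

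Neutrophil transcripts were abundant in every library of this B cell sort. S100a9 was the most abundant gene of all in each of the 4 libraries, and Ngp, S100a8 and Camp also ranked among the 10 most abundant in each. The 33 members together held 12.1% and 22.8% of all FPKM in KO 1 and KO 2, against 9.14% and 8.86% in WT 1 and WT 2. Counted as fragments, which are not divided by transcript length, their share was 4.09% and 8.07% in KO 1 and KO 2, against 3.04% and 2.86% in WT 1 and WT 2. The KO libraries were thus both above both WT libraries, with KO 2 far above KO 1.

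**Figure D1:**
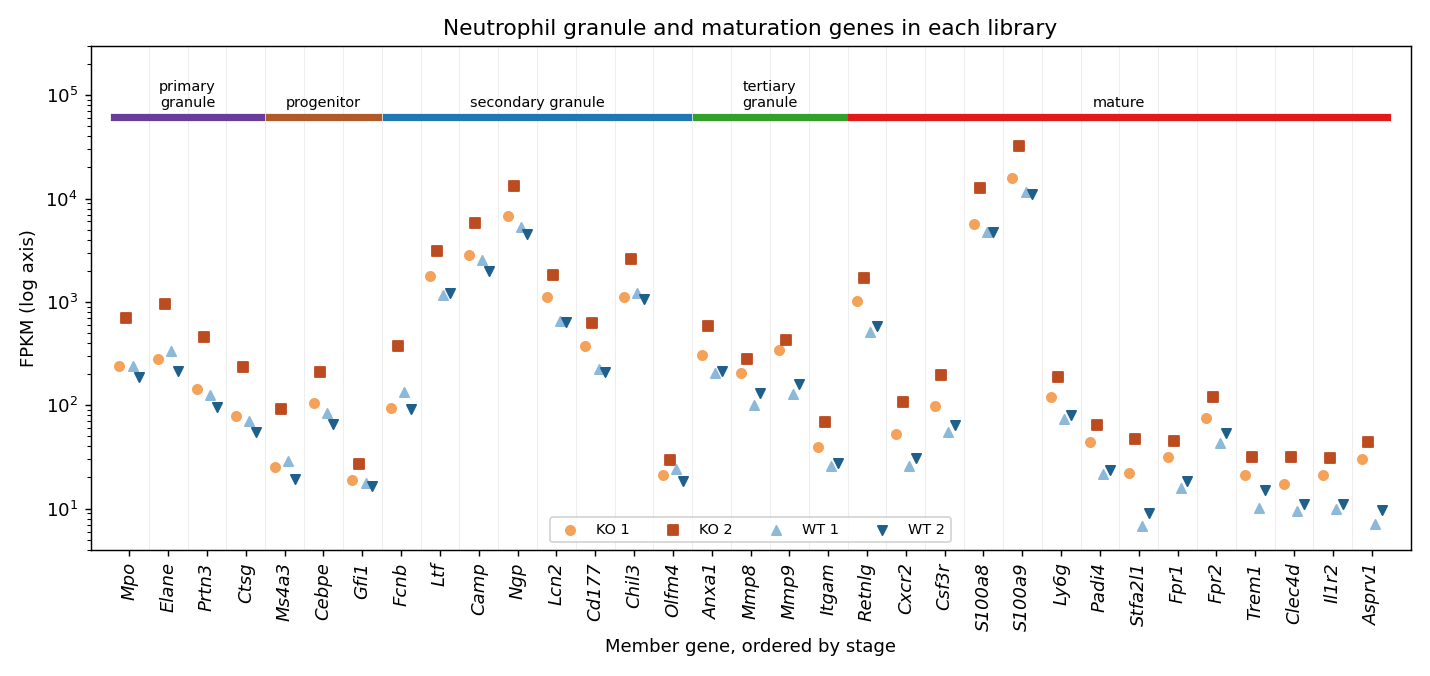
FPKM (log axis) of each of the 33 members in KO 1, KO 2, WT 1 and WT 2, ordered by stage. KO 2 (dark squares) is the highest library for every member, while KO 1 (light circles) lies close to the WT libraries (triangles) on the left and above them on the right.

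Promoter windows of 5 members are shown so that the letters found in genes of different stages can be compared. Windows run from 250 bases before to 50 bases after the transcript start, are RefSeq sequence of GRCm38.p6, and were found for 31 of the 33 members (33 windows, since Gfi1 and Ly6g have 2 each). Capitals mark the letters searched on both strands: TTGCNNAA, part of the motif of C/EBP factors, and GAGGAA, part of the motif of PU.1, both factor families of myeloid cells. Elane (chr10:79886062-79886361, + strand) and Prtn3 (chr10:79879417-79879716, + strand) are paralogous, neighbouring primary granule genes. Ltf (chr9:111019042-111019341, + strand) and Ngp (chr9:110419558-110419857, + strand) are secondary granule genes, and Csf3r (chr4:126024409-126024708, + strand) is a gene of the mature cell.
Elane: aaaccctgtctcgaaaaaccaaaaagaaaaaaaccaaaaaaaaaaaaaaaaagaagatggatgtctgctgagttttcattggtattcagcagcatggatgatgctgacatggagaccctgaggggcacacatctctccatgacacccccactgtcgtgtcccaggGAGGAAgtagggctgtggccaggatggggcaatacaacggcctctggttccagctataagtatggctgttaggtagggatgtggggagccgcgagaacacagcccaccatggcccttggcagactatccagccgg
Prtn3: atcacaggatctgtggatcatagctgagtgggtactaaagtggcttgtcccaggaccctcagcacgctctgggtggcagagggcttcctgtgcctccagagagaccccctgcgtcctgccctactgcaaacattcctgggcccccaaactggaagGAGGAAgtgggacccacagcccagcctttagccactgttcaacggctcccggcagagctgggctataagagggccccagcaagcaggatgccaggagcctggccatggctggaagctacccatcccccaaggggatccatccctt
Ltf: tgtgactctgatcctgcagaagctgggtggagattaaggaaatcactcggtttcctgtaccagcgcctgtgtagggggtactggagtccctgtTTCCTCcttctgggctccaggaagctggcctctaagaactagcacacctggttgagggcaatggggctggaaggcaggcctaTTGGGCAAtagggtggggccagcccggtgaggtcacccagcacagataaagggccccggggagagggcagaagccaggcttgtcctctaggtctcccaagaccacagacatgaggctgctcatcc
Ngp: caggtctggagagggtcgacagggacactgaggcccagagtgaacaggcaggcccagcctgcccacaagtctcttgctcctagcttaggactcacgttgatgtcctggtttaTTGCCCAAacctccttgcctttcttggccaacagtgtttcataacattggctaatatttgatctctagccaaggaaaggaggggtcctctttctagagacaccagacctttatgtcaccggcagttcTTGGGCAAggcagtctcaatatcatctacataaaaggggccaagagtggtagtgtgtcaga
Csf3r: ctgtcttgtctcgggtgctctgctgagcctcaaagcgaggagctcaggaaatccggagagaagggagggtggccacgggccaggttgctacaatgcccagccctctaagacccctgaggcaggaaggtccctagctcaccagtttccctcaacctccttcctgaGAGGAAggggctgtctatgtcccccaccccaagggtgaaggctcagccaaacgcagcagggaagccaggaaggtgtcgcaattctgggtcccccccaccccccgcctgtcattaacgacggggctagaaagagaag
The GAGGAA letters begin at -85 in Elane and at -95 in Prtn3, counted from the transcript start. All 4 primary granule windows held GAGGAA and 0 of 4 held TTGCNNAA. Of 3 progenitor windows, 2 held TTGCNNAA and 1 held GAGGAA. Of 8 secondary granule windows, 4 held TTGCNNAA and 4 held GAGGAA. Tertiary granule genes had 3 windows, of which 2 held TTGCNNAA and 3 held GAGGAA. Among 15 windows of mature genes 3 held TTGCNNAA and 10 held GAGGAA. Over all members, 33.3% of windows held TTGCNNAA and 66.7% held GAGGAA, where 10.8% and 28.3% of all 32851 promoter windows of the same length did. The motifs overlapped in no member window. A match describes the letters and is no evidence of a bound site.

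The comparison of KO with WT libraries asks which neutrophil transcripts differ in the sort of mice labelled as lacking ADAR1. All 33 members had a positive log2 change (KO minus WT), with a median of 1.00 and a range of 0.24 to 2.01, where the median of all 13281 genes tested was -0.09 and 38.3% were positive. Both KO libraries lay above both WT libraries for 28 of the 33, against 19.7% of all genes tested. Taken singly, KO 1 was above both WT libraries for 28 (37.5% of all genes) and KO 2 for 33 (29.4% of all genes). None of the 33 passed an adjusted p of 0.05 in limma over all genes, where 0% of all genes were called higher and 0.203% lower, and none passed with voom on estimated fragments. At an unadjusted p under 0.05 in limma, 20 of the 33 were higher, against 6.45% of all genes. Because the members were chosen with earlier results of these data known, the counts and shares here are a description and no test. Genes entered the test if 1 of the group means reached 1 FPKM; all 33 members did, and each reached it in both groups.

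KO 1 and KO 2 differed from each other more than the WT libraries did, which limits the test. KO 2 was above KO 1 for all 33 members (36.4% of all genes tested), by a median of 1.82-fold and by up to 3.96-fold. In KO 2, 32 of the 33 were at least 1.5-fold above the WT mean, against 13.7% of all genes, and in KO 1 16 of the 33 were, against 7.63% of all genes. Without KO 1, 20 of the 33 were called higher in limma (4.21% of all genes were), and without KO 2 none was. Each of these fits has a single KO library, so its spread comes from the WT pair and the lone library is assumed to vary like them. Taking the replicate number as a block, 2 members passed (0.0527% of all genes were higher). With the numbers crossed, a fit added after seeing the data, 3 passed (0.346%). The labels do not say that a number pairs libraries. Scaling to the B-lineage markers, which moves the median of all genes to 0.34, gave 27 members called higher (2.8% of all genes). On that scale 90.4% of all genes were positive. The median log2 difference of the members from the WT mean was then 0.63 in KO 1 and 2.29 in KO 2. Without the scaling it was 0.56 in KO 1 and 1.49 in KO 2, so the scaling did not bring the KO libraries closer.

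Primary granule genes were high in KO 2 and near the WT level in KO 1. Mpo, the myeloperoxidase that makes hypochlorous acid, stood at 238.3 and 704.81 FPKM in KO 1 and KO 2, against 237.88 and 188.7 FPKM in WT 1 and WT 2. Elane, neutrophil elastase (GRCm38 chromosome 10, 79886247 to 79888215), had 277.15 and 958.6 FPKM in KO 1 and KO 2 and 336.09 and 213.75 FPKM in WT 1 and WT 2. For Elane the KO 1 value lay between the WT values, so the groups overlapped, while KO 2 was 3.49-fold above the WT mean. Prtn3, proteinase 3, is encoded 3072 bases before Elane and stood at 144.81 and 455.46 FPKM in KO 1 and KO 2, against 125.18 and 95.69 FPKM in WT 1 and WT 2. Ctsg, cathepsin G, had 79.14 and 233.39 FPKM in KO 1 and KO 2, against 69.71 and 55.43 FPKM in WT 1 and WT 2. Both KO libraries lay above both WT libraries for 3 of the 4, Mpo, Prtn3 and Ctsg (19.7% of all genes tested). For Mpo the KO 1 value of 238.3 FPKM barely exceeded the WT 1 value of 237.88 FPKM. The 4 genes moved alike: KO 2 was 2.95- to 3.46-fold above KO 1, and WT 1 was 1.26- to 1.57-fold above WT 2. Their summed level was 739 and 2352 FPKM in KO 1 and KO 2, against 769 and 554 FPKM in WT 1 and WT 2. The group means were 618 ± 482 FPKM in KO and 275 ± 86.5 FPKM in WT for Elane (SD, n = 2 each), a log2 change of 0.94 ± 0.62 (SE) with an adjusted p of 0.529 in limma. The adjusted p of the other 3 lay between 0.439 and 0.482.

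Of the 3 progenitor genes, KO 1 lay between the WT values for 1 and above both for 2. Ms4a3, a membrane protein of granulocyte-monocyte progenitors, followed the primary granule genes with 25.13 and 92.69 FPKM in KO 1 and KO 2, against 29.09 and 19.2 FPKM in WT 1 and WT 2. Cebpe, the C/EBP factor needed for secondary granule genes, stood at 104.08 and 208.12 FPKM in KO 1 and KO 2, against 84.29 and 66.56 FPKM in WT 1 and WT 2, with both KO libraries above both WT libraries. Gfi1, a zinc finger repressor that B cell progenitors also use, had 18.94 and 26.87 FPKM in KO 1 and KO 2, against 17.59 and 16.72 FPKM in WT 1 and WT 2. Gfi1 had the smallest KO 2 fold of the 7 early genes, 1.57-fold over the WT mean. None of the 3 passed (adjusted p between 0.389 and 0.508, limma).

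Secondary granule genes were the most abundant stage after the S100 genes, and split by gene in KO 1. Ltf, the iron-binding lactoferrin, stood at 1763.15 and 3107.32 FPKM in KO 1 and KO 2, against 1166.45 and 1217.87 FPKM in WT 1 and WT 2. Lcn2, which sequesters bacterial siderophores, had 1126.1 and 1814.6 FPKM in KO 1 and KO 2, against 650.27 and 636.62 FPKM in WT 1 and WT 2. Cd177, a surface glycoprotein of neutrophils, was at 375.13 and 623.87 FPKM in KO 1 and KO 2, against 222.18 and 211.03 FPKM in WT 1 and WT 2. In these 3 genes the groups did not overlap, and the WT libraries were within 1.05-fold of each other. Lcn2 averaged 1470 ± 487 FPKM in KO and 643 ± 9.65 FPKM in WT (SD, n = 2 each), a log2 change of 1.15 ± 0.31 (SE) with an adjusted p of 0.345 in limma.

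Camp and Ngp encode related proteins with a cathelin-like domain and lie 570129 bases apart on chromosome 9. Camp, the cathelicidin CRAMP, had 2860.41 and 5771.48 FPKM in KO 1 and KO 2, against 2548.99 and 2002.08 FPKM in WT 1 and WT 2. Ngp, neutrophilic granule protein, had 6727.8 and 13344.65 FPKM in KO 1 and KO 2, against 5301.42 and 4581.91 FPKM in WT 1 and WT 2. Both had non-overlapping groups, with KO 1 only 1.26-fold (Camp) and 1.36-fold (Ngp) above the WT mean. Fcnb, the lectin ficolin B, stood at 94.01 and 372.2 FPKM in KO 1 and KO 2, against 135.26 and 92.85 FPKM in WT 1 and WT 2. Chil3, the chitinase-like protein Ym1, had 1120.51 and 2627.79 FPKM in KO 1 and KO 2, against 1214.85 and 1071.61 FPKM in WT 1 and WT 2. Olfm4, a glycoprotein made by a subset of neutrophils, had 21.27 and 29.65 FPKM in KO 1 and KO 2, against 24.18 and 18.43 FPKM in WT 1 and WT 2. For Fcnb, Chil3 and Olfm4 the KO 1 value lay between the WT values, and without KO 2 the log2 change of Fcnb was -0.25 and that of Chil3 -0.026. Fcnb had the largest KO 2 to KO 1 ratio of all members, 3.96-fold, and Olfm4 the smallest KO 2 fold over the WT mean, 1.39-fold. The 8 genes together had a median log2 change of 0.89, and their adjusted p lay between 0.337 and 0.625 in limma.

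All 4 tertiary granule genes were above both WT libraries in both KO libraries, against 19.7% of all genes tested. Mmp9, gelatinase B, stood at 341.98 and 429.82 FPKM in KO 1 and KO 2, against 128.07 and 159.43 FPKM in WT 1 and WT 2. Mmp8, a neutrophil collagenase, had 205.35 and 279.33 FPKM in KO 1 and KO 2, against 100.86 and 130.52 FPKM in WT 1 and WT 2. These metalloproteinase genes had the most similar KO libraries of all members, with KO 2 only 1.26-fold (Mmp9) and 1.36-fold (Mmp8) above KO 1. Anxa1, the anti-inflammatory annexin A1, was at 305.98 and 579.54 FPKM in KO 1 and KO 2, against 205.22 and 213.85 FPKM in WT 1 and WT 2. Itgam, the integrin chain CD11b that monocytes and macrophages also carry, had 39.22 and 68.86 FPKM in KO 1 and KO 2, against 25.94 and 27.85 FPKM in WT 1 and WT 2. Mmp9 averaged 386 ± 62.1 FPKM in KO and 144 ± 22.2 FPKM in WT (SD, n = 2 each), a log2 change of 1.42 ± 0.22 (SE) with an adjusted p of 0.169 in limma.

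Both KO libraries lay above both WT libraries for 14 of 14 genes of the mature neutrophil (19.7% of all genes tested). Asprv1, an aspartic protease also known from skin, had the largest log2 change of the 33. It stood at 30.28 and 43.85 FPKM in KO 1 and KO 2, against 7.16 and 9.61 FPKM in WT 1 and WT 2. The means were 37.1 ± 9.60 FPKM in KO and 8.39 ± 1.73 FPKM in WT (SD, n = 2 each), and the groups did not overlap. Its log2 change was 2.01 ± 0.24 (SE) with an adjusted p of 0.0935 in limma. With the replicate number as a block in limma its adjusted p was 0.0154, and with the numbers crossed 0.00665. The labels do not say that a number pairs libraries, so the block is an assumption. Stfa2l1, a cysteine protease inhibitor of the stefin A cluster, had 22.15 and 47.19 FPKM in KO 1 and KO 2, against 6.8 and 9.16 FPKM in WT 1 and WT 2. The Stfa2l1 values rest on about 147 and 299 fragments in KO 1 and KO 2 and 45 and 63 in WT 1 and WT 2, and similar genes of the cluster could share its reads. Its adjusted p was 0.286 in limma, and 0.0424 with the block.

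Receptor genes of the mature cell were 1.55- to 2.02-fold above the WT mean in KO 1 and 2.45- to 3.77-fold in KO 2. Cxcr2, the chemokine receptor that draws neutrophils out of the marrow, stood at 53.02 and 107.3 FPKM in KO 1 and KO 2, against 26.01 and 30.84 FPKM in WT 1 and WT 2. Csf3r, the receptor for G-CSF, had 99.22 and 194.51 FPKM in KO 1 and KO 2, against 54.64 and 64.47 FPKM in WT 1 and WT 2. Il1r2, a decoy receptor for interleukin 1, had 21.18 and 30.88 FPKM in KO 1 and KO 2, against 9.82 and 11.14 FPKM in WT 1 and WT 2. For each of these 3 the lower KO value was at least 1.67-fold above the WT mean. The formyl peptide receptor genes Fpr1 and Fpr2, which sense bacterial peptides, lie 3883 bases apart on chromosome 17. Fpr1 had 31.28 and 45.2 FPKM in KO 1 and KO 2 and 15.87 and 18.54 FPKM in WT 1 and WT 2. Fpr2 had 75.55 and 119.19 FPKM in KO 1 and KO 2 and 42.77 and 54.47 FPKM in WT 1 and WT 2. Both receptor genes had all KO values above all WT values, and Fpr2 has close paralogues that could share reads. Trem1, which amplifies Toll-like receptor signals, had 20.97 and 31.67 FPKM in KO 1 and KO 2 and 10.2 and 15.11 FPKM in WT 1 and WT 2. Clec4d, a C-type lectin for mycobacterial lipids, had 17.45 and 31.84 FPKM in KO 1 and KO 2 and 9.5 and 11.16 FPKM in WT 1 and WT 2. The adjusted p of these 7 receptor genes lay between 0.239 and 0.345 in limma.

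The remaining mature genes included the most abundant transcripts of the set. S100a8 and S100a9 encode the subunits of calprotectin, a cytosolic protein made from the myelocyte stage on, and lie 22596 bases apart on chromosome 3. S100a9 had 15796.2 and 32345.53 FPKM in KO 1 and KO 2, against 11646.72 and 11187.28 FPKM in WT 1 and WT 2. S100a8 had 5639.28 and 12643.64 FPKM in KO 1 and KO 2, against 4791.4 and 4744.08 FPKM in WT 1 and WT 2. In KO 1 they were 1.38-fold and 1.18-fold above the WT mean, less than each of the other 12 mature genes, of which the lowest was 1.55-fold. Retnlg, a resistin-like protein, had 1015.82 and 1689.68 FPKM in KO 1 and KO 2, against 512.77 and 586.32 FPKM in WT 1 and WT 2. Ly6g, the surface protein used to sort neutrophils, had 120.16 and 186.09 FPKM in KO 1 and KO 2, against 74.1 and 80.96 FPKM in WT 1 and WT 2. Padi4, which citrullinates histones when extracellular traps form, had 43.71 and 65.02 FPKM in KO 1 and KO 2, against 21.41 and 23.82 FPKM in WT 1 and WT 2. The groups overlapped for none of these 5 genes, and Ly6g, a member of the Ly6 family, could share reads with its relatives.

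**Figure D2:**
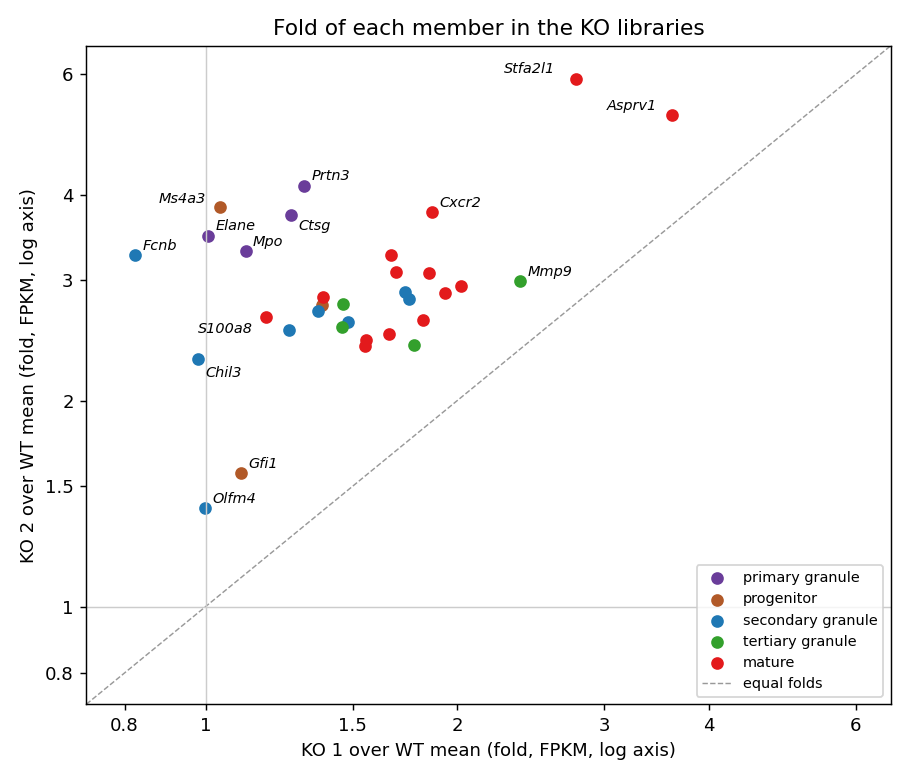
Fold of each of the 33 members over the WT mean in KO 1 (horizontal) and KO 2 (vertical), both log axes, coloured by stage, with equal folds on the dashed line. All points lie above the line, and the 7 primary granule and progenitor genes end at 1.38-fold in KO 1 while 13 of 14 mature genes lie beyond that, S100a9 only narrowly.

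Early and late genes were compared within each library. In KO 1 the 7 early genes (primary granule and progenitor) had a median fold over the WT mean of 1.12 (range 1.01 to 1.38), and the 14 mature genes one of 1.75 (range 1.18 to 3.61). The lists were nearly apart in KO 1, since 13 of 14 mature genes had a larger fold than every early gene. Among these, S100a9 exceeded the early gene Cebpe only narrowly, at 1.384-fold against 1.380-fold. In KO 2 the order was not the same: the early genes had a median of 3.49-fold (range 1.57 to 4.12) and the mature genes one of 2.91-fold (range 2.40 to 5.91), and only 2 of 14 mature genes, Stfa2l1 and Asprv1, exceeded every early gene. The medians over all genes tested were 0.992-fold in KO 1 and 0.864-fold in KO 2. The WT libraries differed by stage as well, with all 7 early genes higher in WT 1 than in WT 2 and 12 of 14 mature genes lower, where WT 1 was higher for 52.3% of all genes.

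The ratio of late to early genes therefore did not follow the group labels. Summed FPKM of the 14 mature genes was 25.9 and 17.8 times that of the 7 early genes in KO 1 and KO 2, against 19.1 and 25.7 times in WT 1 and WT 2. KO 1 stood with WT 2 at the high end and KO 2 with WT 1 at the low end. S100a8 and S100a9 make up most of the late sum. Without them the ratio was 1.75 and 0.967 in KO 1 and KO 2, against 0.879 and 1.40 in WT 1 and WT 2, so that KO 1 was highest and the groups still overlapped. The KO minus WT difference of the log2 ratio was -0.05 with all mature genes and 0.23 without the S100 genes. The ratio is given as a description, without a test. The smallest p that an exact permutation test allows for groups of 2 is 0.333.

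**Figure D3:**
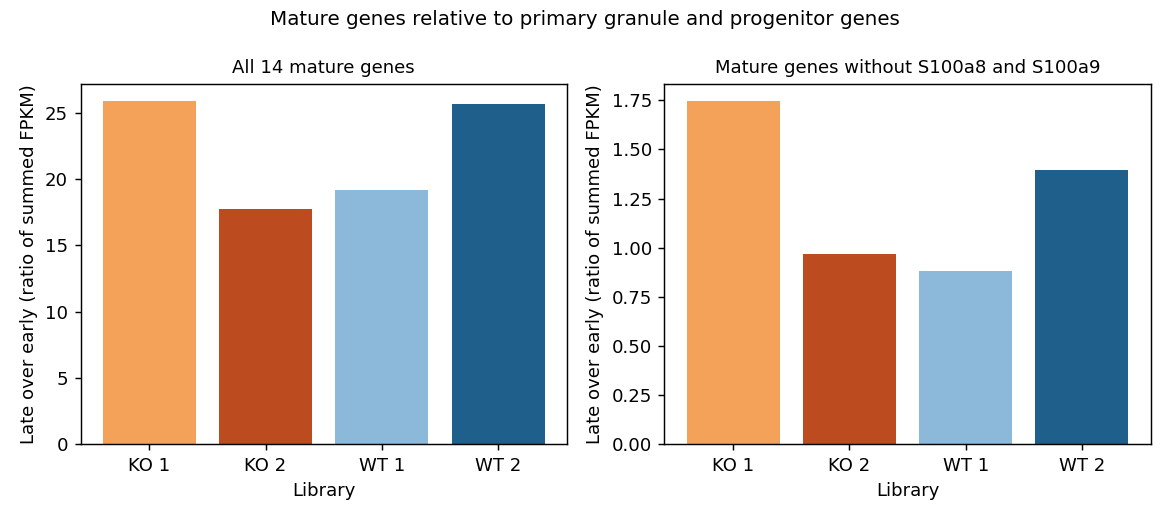
Summed FPKM of mature genes divided by that of the 7 early genes in KO 1, KO 2, WT 1 and WT 2, with all 14 mature genes (left) and without S100a8 and S100a9 (right), 1 bar per library and no error bars. KO 1 and WT 2 are high and KO 2 and WT 1 low in both panels.

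Other genes of the neutrophil programme were listed by role, in lists chosen with earlier results of these data known. Of 13 further specific and gelatinase granule genes, 13 were above both WT libraries in both KO libraries, against 19.7% of all genes tested. Of these 13 genes 0 passed (median log2 change 1.16). Among them, Lrg1, a glycoprotein of granulocytes, had 144.24 and 229.89 FPKM in KO 1 and KO 2, against 62.79 and 56.67 FPKM in WT 1 and WT 2. Adam8, a metalloproteinase, had 53.06 and 60.89 FPKM in KO 1 and KO 2, against 19.18 and 26.25 FPKM in WT 1 and WT 2. KO and WT libraries did not overlap for these genes, and Adam8 had KO libraries close to each other, like Mmp9 and Mmp8. Mmp25, a membrane-bound metalloproteinase, had 31.54 and 45.35 FPKM in KO 1 and KO 2, against 13.94 and 15.83 FPKM in WT 1 and WT 2. Pglyrp1, which binds bacterial peptidoglycan, had 253.48 and 414.02 FPKM in KO 1 and KO 2, against 146.27 and 120.23 FPKM in WT 1 and WT 2. All 6 genes of the NADPH oxidase, which makes the oxidative burst, were above both WT libraries in both KO libraries (median log2 change 0.81), and 0 passed. Ncf1, the cytosolic subunit p47phox, had 186.55 and 309.92 FPKM in KO 1 and KO 2, against 111.53 and 106.56 FPKM in WT 1 and WT 2. Ncf4, the subunit p40phox, had 99.76 and 187.7 FPKM in KO 1 and KO 2, against 73.75 and 68.42 FPKM in WT 1 and WT 2. Cyba, the membrane subunit p22phox, had 215.15 and 344.81 FPKM in KO 1 and KO 2, against 173.83 and 134.25 FPKM in WT 1 and WT 2. The groups did not overlap for any of these 3 genes.

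Of 20 further mature neutrophil genes 20 were positive and 17 lay above both WT libraries (median 0.90), again with 0 passing. Alox5ap, the activator of leukotriene synthesis, had 201.88 and 303.89 FPKM in KO 1 and KO 2, against 109.94 and 109.26 FPKM in WT 1 and WT 2. Mxd1, a repressor of the MAX network, had 53.79 and 86.35 FPKM in KO 1 and KO 2, against 28.83 and 31.04 FPKM in WT 1 and WT 2. Hdc, the histamine-making enzyme that basophils also carry, had 33.76 and 55.86 FPKM in KO 1 and KO 2, against 17.25 and 20.06 FPKM in WT 1 and WT 2. All KO values exceeded all WT values in these 3 genes. Stfa2, a stefin A gene whose reads similar copies could share, had 2.14 and 4.63 FPKM in KO 1 and KO 2, against 0.4 and 0.52 FPKM in WT 1 and WT 2.

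Of 9 further azurophil and secretory genes 7 were tested, 6 were positive (38.3% of all genes tested) and 0 passed (median log2 change 0.75). Both KO libraries lay above both WT libraries for 4 of these 7, against 19.7% of all genes tested. Their median fold was 1.08 in KO 1 and 2.39 in KO 2. Prss57, a serine protease of azurophil granules, had 5.26 and 17.23 FPKM in KO 1 and KO 2, against 5.9 and 3.88 FPKM in WT 1 and WT 2. Nkg7, a granule membrane protein that cytotoxic lymphocytes also make, had 27.77 and 79.15 FPKM in KO 1 and KO 2, against 26.52 and 22.46 FPKM in WT 1 and WT 2. KO 1 lay near the WT values for both. Lyz2, lysozyme, which monocytes and macrophages also make, had 2950.21 and 5533.43 FPKM in KO 1 and KO 2, against 2117.79 and 2152.82 FPKM in WT 1 and WT 2. Serpinb1a, an inhibitor of neutrophil serine proteases, had 105.15 and 211.61 FPKM in KO 1 and KO 2, against 92.49 and 84.37 FPKM in WT 1 and WT 2. Of 10 transcription factors of granulopoiesis 8 were positive and 0 passed (median log2 change 0.28, median fold 1.20 in KO 1 and 1.12 in KO 2). Both KO libraries lay above both WT libraries for 5 of the 10 (19.7% of all genes tested) and below both for 1. The 4 with the smallest p follow. Cebpb, the C/EBP factor of emergency granulopoiesis, had 67.91 and 124.51 FPKM in KO 1 and KO 2, against 44.01 and 37.42 FPKM in WT 1 and WT 2. Cebpd, a C/EBP factor of later stages, had 21.03 and 33.61 FPKM in KO 1 and KO 2, against 13.35 and 11.11 FPKM in WT 1 and WT 2. Both had KO values above all WT values. Spi1, which encodes PU.1 and is also used by B cells, had 72.59 and 109.53 FPKM in KO 1 and KO 2, against 56.12 and 48.98 FPKM in WT 1 and WT 2. Cebpa, which acts earlier, had 11.95 and 20.75 FPKM in KO 1 and KO 2, against 11.07 and 9.4 FPKM in WT 1 and WT 2.

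Markers of other cells were summed in the same libraries. Monocyte markers, 10 of 10 detected, summed to 168 and 362 FPKM in KO 1 and KO 2, against 167 and 144 FPKM in WT 1 and WT 2. Ly6c2 held most of the KO 1 sum, with 104.16 and 228.06 FPKM in KO 1 and KO 2, against 84.05 and 71.63 FPKM in WT 1 and WT 2. Over the list the median fold over the WT mean was 0.813 in KO 1 and 1.87 in KO 2. For 4 of 10 markers both KO libraries lay above both WT libraries, against 19.7% of all genes tested. Macrophage markers summed to 198 and 291 FPKM in KO 1 and KO 2, against 496 and 268 FPKM in WT 1 and WT 2. Erythroid markers summed to 480 and 812 FPKM in KO 1 and KO 2, against 1609 and 939 FPKM in WT 1 and WT 2. Both sums were below the WT mean in both KO libraries, and both were higher in KO 2 than in KO 1. For macrophage markers the groups overlapped, since KO 2 was above WT 2, and WT 1 was far above WT 2. Markers of eosinophils, basophils and mast cells summed to 207 and 210 FPKM in KO 1 and KO 2, against 220 and 185 FPKM in WT 1 and WT 2. Those of plasmacytoid dendritic cells summed to 316 and 232 FPKM in KO 1 and KO 2, against 332 and 355 FPKM in WT 1 and WT 2. Spib and Ly6d, which B cells also express, carry most of that sum. By gene, 6 of the 8 markers had a positive log2 change (median 0.40), against 38.3% of all genes tested. In 5 of the 8 both KO libraries were above both WT libraries, against 19.7% of all genes tested. T and NK cell markers summed to 37.7 and 49.0 FPKM in KO 1 and KO 2, against 38.0 and 32.0 FPKM in WT 1 and WT 2, and the platelet and stem cell lists were lower still, with the platelet gene Gp1bb at or near 0 in every library. The B-lineage sum was lowest in KO 2, where the members were highest. By gene, 3 of its 15 markers had a positive log2 change, against 38.3% of all genes tested. Their median fold over the WT mean was 0.968 in KO 1 and 0.533 in KO 2, against 0.992 and 0.864 over all genes. Cd79a and Cd24a were low in KO 1, at 193.59 and 576.02 FPKM, against 436.24 and 829.95 FPKM in WT 1. Ptprc was highest in KO 2, at 43.52 FPKM. What part the cell content of the sorted samples has in the values of the 33 members was not tested.

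**Figure D4:**
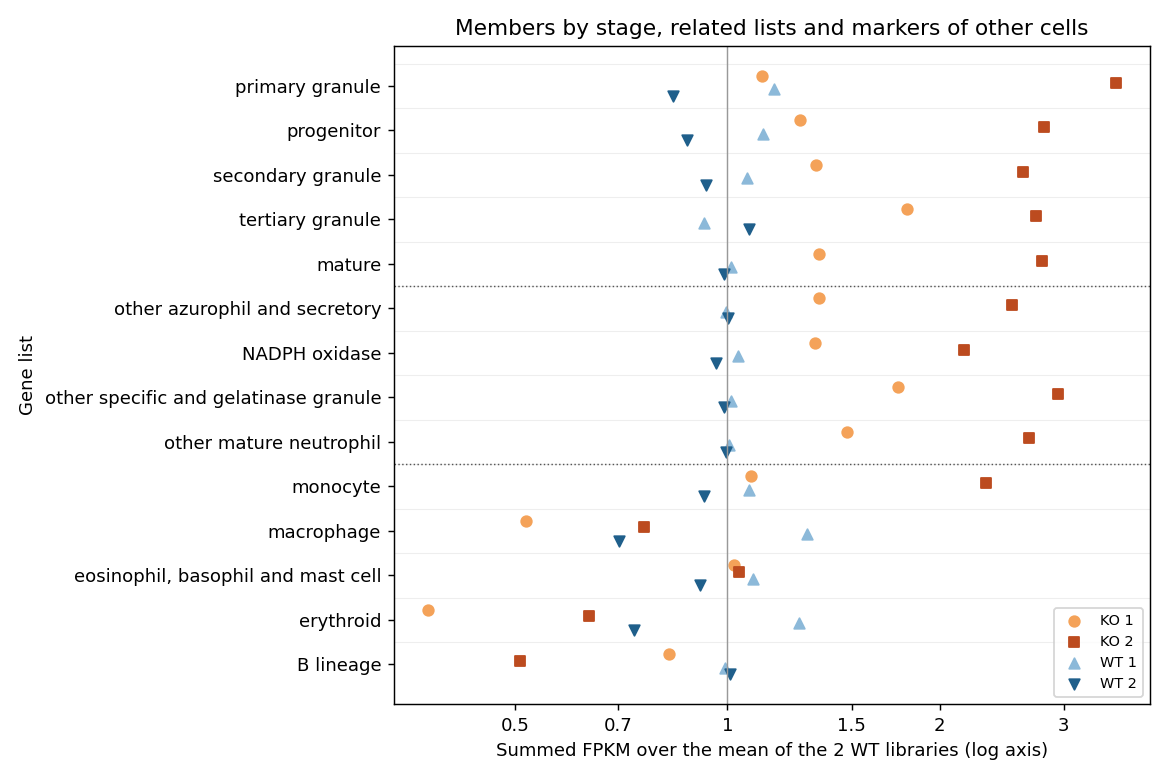
Summed FPKM of the 5 stage lists (top), 4 related lists (middle) and markers of other cells (bottom) in each library, over the mean of the 2 WT libraries (log axis, 1 point per library). The primary granule genes are 3.56 times the WT mean in KO 2 and 1.12 times in KO 1. Erythroid and macrophage markers lie below 1 in both KO libraries and in WT 2.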

How the data were processed

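The authors deposited 1 value per gene and library, FPKM per the file headers, for 55573 mouse Ensembl identifiers. Build mm9 is named in the submitters' processing notes; for the aligner, counter and strandedness: not given in the sources used here. Gene symbols matched 55394 identifiers. Exon lengths and coordinates are GENCODE M21 (GRCm38) and sequences RefSeq (GRCm38.p6), since the files give none. GRCm38 is a different build from mm9, so the coordinates printed here are not on the build named in the notes. M21 lengths were found for 55480 of the 55573 identifiers. FPKM times exon length fell on whole multiples of 1 fragment, within 0.15 fragments, for 99.3% to 99.5% of values checked; fragment numbers are estimates from this spacing.

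KO and WT were compared with limma 3.58.1 in R 4.3.3, applied to log2(FPKM + 1) without covariates and with the variance prior following mean level. The 13281 genes tested had 1 FPKM or more as the mean of KO or of WT, and Benjamini-Hochberg adjustment ran over all of them (threshold 0.05). Log2 changes are KO minus WT on the log2(FPKM + 1) scale, which understates changes of low genes. Members with at least 5 FPKM in any library, all 33 of them, were named with every value, and of related lists up to 4 genes with the smallest p, of which 1 is not reported here. The members and lists were chosen with earlier results of these data known. Alternatives were another pseudocount and filters, each library left out, the replicate number as a block, median centring, B-lineage scaling and voom on estimated fragments.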

Additional observations from a re-analysis of the deposited data

How the results depend on the processing

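The number of members called higher was 0 with all libraries and with a pseudocount of 0.1, no filter, a filter of 5 FPKM, median centring and voom. It was 20 without KO 1 and 0 without KO 2, WT 1 or WT 2 (range 0 to 20), and 27 with B-lineage scaling (2.8% of all genes were then called higher), which moves the median of all genes to 0.34, against -0.09. With the replicate number as a block it was 2 (Asprv1 and Stfa2l1, 0.0527% of all genes), and with a crossed pairing, added after seeing the data, 3 (0.346%). Over all genes the calls numbered 27, and 15 with a pseudocount of 0.1, 0 with no filter, 35 with the filter of 5 FPKM, 9 with voom, 68 with the replicate block, 213 with the crossed block and 506 with B-lineage scaling. Leaving out a library gave 0 (without KO 2) to 948 (without KO 1) calls, with 14 without WT 1. The labels do not say that a number pairs libraries, and across genes the difference of KO 1 and KO 2 correlated with that of WT 1 and WT 2 at -0.149. The median log2 change stayed positive for all 5 stages in each setting run. Leaving out a library moved it over 0.26 to 1.86 for primary granule, 0.14 to 1.46 for progenitor, 0.39 to 1.41 for secondary granule, 0.69 to 1.39 for tertiary granule and 0.78 to 1.49 for mature genes, the low ends without KO 2 and the high ends without KO 1. B-lineage scaling gave 1.47 for tertiary granule and 1.60 for mature genes. The late over early difference of -0.05 reversed to 0.23 without the S100 genes and to 0.28 as a difference of mean log2 values, and ranged from -0.32 (without KO 1) to 0.22 (without KO 2) over left-out libraries, 0.16 without WT 2; the cause was not tested. Among single members, Fcnb and Chil3 reversed without KO 2, with leave-one-out ranges of -0.25 to 1.72 (Fcnb) and -0.026 to 1.20 (Chil3). Fits without a KO or WT library have 1 library in that group, assumed to vary like the other group. Among the members, Stfa2l1 rests on the fewest fragments, 45 in WT 1.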
